A study of Mus musculus with 4 samples.

Results

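H3K27me3 was examined at 41 genes on the mouse X chromosome that encode mitochondrial proteins and metabolic enzymes, in female embryonic fibroblasts with and without SmcHD1. The members were chosen by symbol among the X-linked rows of a deposited table of 22691 genes, of which 952 lay on the X. All 41 were found once, and each is annotated as protein-coding on the X in RefSeq. All 41 had a value in both genotypes and no filter on low values was applied, so none is missing from the counts below. Of them, 37 are treated as broadly used enzymes and transporters, called ubiquitous here, and 4 as tissue-restricted: Otc, Alas2, Maoa and Maob. That division was made by gene name, and expression was not measured to check it in these cells.

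The mark was profiled by chromatin immunoprecipitation and sequencing with the mouse monoclonal antibody CMA323, and each genotype also had an input library made with no antibody. The Smchd1 MD1/MD1 cells, called MD1 here and described by the series as deficient for SmcHD1, were set against Smchd1 +/+ cells (WT). Both were embryonic fibroblasts of strain C57BL6/J taken from female fetuses at stage E13.5. There was 1 ChIP library and 1 input library per genotype, so the differences have no replicate check and no p-value is given, and how many fetuses contributed is not given in the sources used here. The depth of the libraries is unknown.

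H3K27me3 is laid down by Polycomb repressive complex 2 and is found at silent genes. In female cells it coats the inactive X chromosome, including genes whose copy on the active X is transcribed, so an X-linked value averages a marked and a largely unmarked chromosome. SmcHD1 is a noncanonical SMC-family protein that is concentrated on the inactive X and helps to keep its genes silent. Many enzymes of central metabolism are encoded on the X as single genes, and female cells normally use 1 of the 2 copies.

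Values are log2 enrichments per gene, and each difference is MD1 minus WT, so that -1 stands for a 2-fold lower enrichment in MD1 and 1 for a 2-fold higher one. A gene is called lower or higher at that 2-fold limit. The scatter to set these differences against was that of 19836 autosomal genes in the same libraries. Their median difference was -0.27, and low genes were lower still in MD1, so a level-matched difference is also given where it bears on a result: from the difference is subtracted the median difference of 500 autosomal genes that share the gene's length quartile and are closest to it in mean level. The standard deviation (SD) of level-matched differences over autosomal genes was 0.86, 0.49, 0.36 and 0.28 from the shortest to the longest length quartile, so short genes are measured with more scatter. Among markers of the labelled cell type, all 9 fibroblast genes examined had values below the autosomal median in both genotypes, with medians of -3.99 in MD1 and -2.90 in WT. The 10 markers of epithelial, endothelial, blood, liver, neural and muscle cells had medians of 0.76 in MD1 and 0.62 in WT.

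The metabolic genes split into a group with much less mark in MD1 and a group close to or above its WT level. Of the 41 members, 18 (43.9%) were lower in MD1, 2 were higher and 21 lay within the limits. Over all 770 X genes with values, 18.3% were lower and 22.1% higher, and over autosomal genes 20.4% were lower and 1.61% higher. All 18 lower members were ubiquitous genes, and both higher ones were tissue-restricted. By level-matched difference the same 18 were lower and the same 2 higher, against 17.4% lower and 19.1% higher X genes, and 3.42% lower and 3.17% higher autosomal genes. The lower members had a median of -2.24 in MD1 and 0.63 in WT, and the members within the limits had medians of 0.76 in MD1 and 0.66 in WT. Nearly every value has the form of 1 whole number over another times a constant, known only in lowest terms, as a ChIP over input ratio would. The MD1 ratio had a numerator of at most 10 in 9 of the 18 lower members and in none of the others, so those values may rest on few reads. Selecting genes for a low MD1 value favours small MD1 numerators. In WT the ratios of the lower members Slc25a5 and Sat1 were 1 to 1 and 1 to 2, so their WT read support is unknown too. With 1 added to the linear ratios, which damps differences at low enrichment, 6 members were lower (Atp6ap1, Atp6ap2, G6pdx, Taz, Ndufa1 and Idh3g) and 0 higher. Under that setting a gene with a WT value below 0 cannot be called lower, so the setting does not check read support. The MD1 numerators were 2 for Atp6ap1, 3 for Atp6ap2, 5 for G6pdx, 19 for Taz, 4 for Ndufa1 and 25 for Idh3g. Less mark in every cell and loss of the mark in a share of the cells cannot be told apart in such libraries. The WT level did not separate them, and across the 41 genes the WT value and the difference had r = -0.028. The SD across members was 1.82 in MD1 and 0.64 in WT. The spread was wider in MD1 for all 770 X genes as well, at 1.68 and 0.77, and for autosomal genes, at 2.08 and 1.57.

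**Figure D1:**
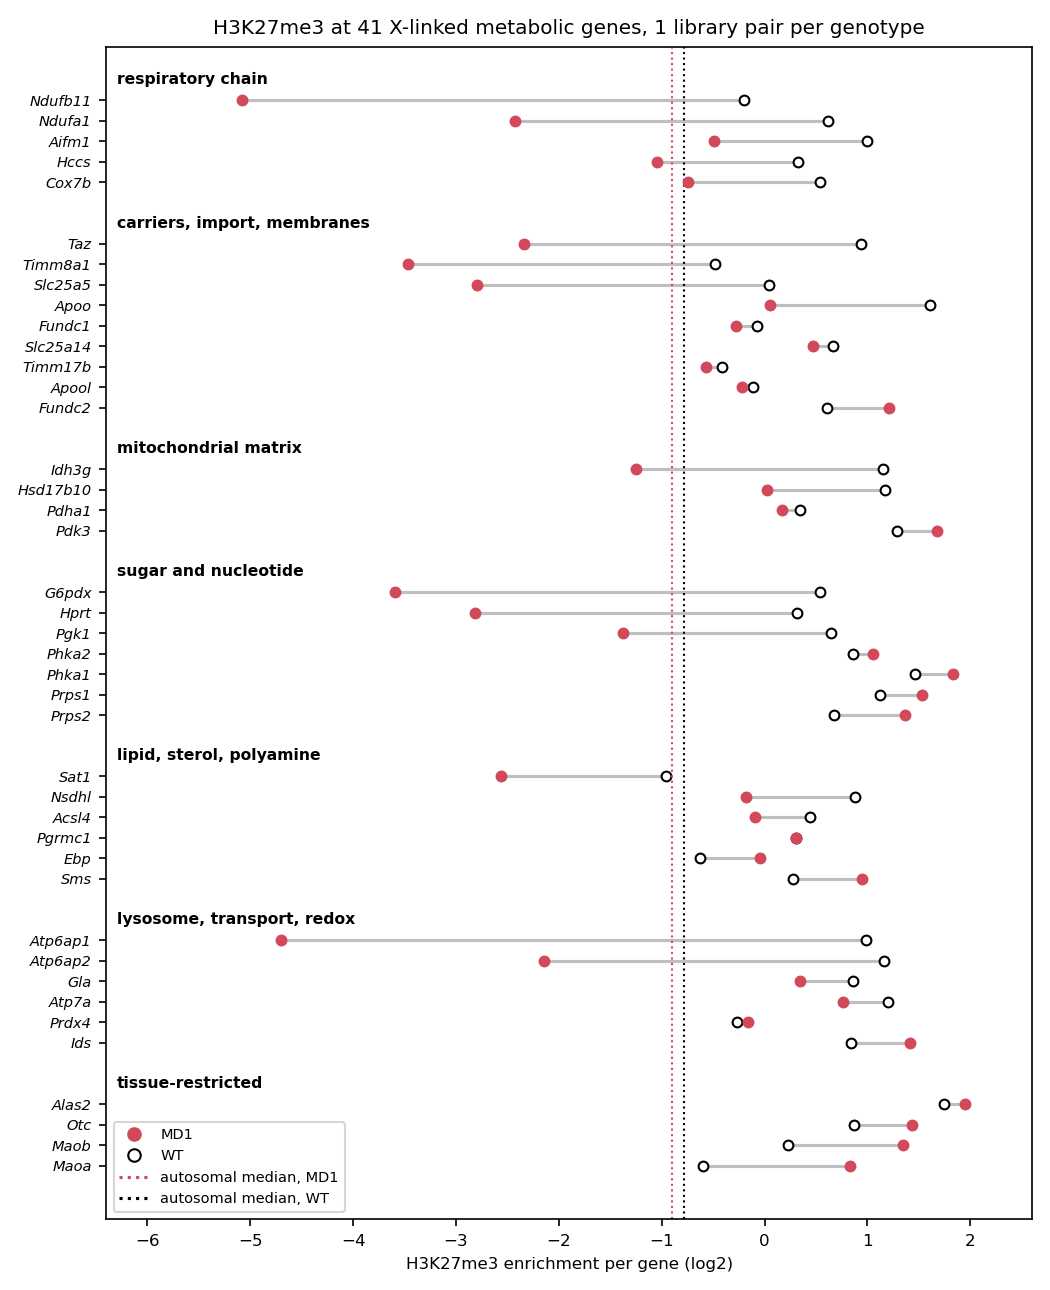
Log2 H3K27me3 enrichment of each member in MD1 (filled) and WT (open), grouped by role and ordered within each role by the difference. Dotted lines mark the autosomal medians of -0.90 in MD1 and -0.78 in WT. The MD1 points spread between -5.08 and 1.95, and the WT points between -0.96 and 1.75, with 13 members below the MD1 line and 1 below the WT line.

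Promoters of 4 members are shown as examples of their base composition. They were chosen by rule, in part for the size of the difference, and so do not bear on whether composition goes with it: Otc for the tissue-restricted genes, the 2 ubiquitous genes with the lowest differences (Atp6ap1 and Ndufb11) and the 1 with the highest (Prps2). Maob, which the rule also asked for, had no entry in the table used. Each is the RefSeq window from 250 bases before to 50 after the gene's start in build GRCm38.p6, written 5′ to 3′ on the gene's strand, with CpG dinucleotides, the sites of DNA methylation and the mark of CpG island promoters, in capitals. The windows are chrX:74296847-74297146 (plus strand) for Atp6ap1, chrX:20617570-20617869 (minus) for Ndufb11, chrX:167382700-167382999 (minus) for Prps2 and chrX:10252055-10252354 (plus) for Otc.
Atp6ap1: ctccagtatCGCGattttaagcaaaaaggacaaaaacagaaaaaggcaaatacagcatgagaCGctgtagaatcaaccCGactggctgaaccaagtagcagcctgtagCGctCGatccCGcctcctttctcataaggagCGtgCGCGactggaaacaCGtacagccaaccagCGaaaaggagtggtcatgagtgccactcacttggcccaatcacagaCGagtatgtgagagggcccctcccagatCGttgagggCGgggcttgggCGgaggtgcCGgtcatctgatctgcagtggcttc
Ndufb11: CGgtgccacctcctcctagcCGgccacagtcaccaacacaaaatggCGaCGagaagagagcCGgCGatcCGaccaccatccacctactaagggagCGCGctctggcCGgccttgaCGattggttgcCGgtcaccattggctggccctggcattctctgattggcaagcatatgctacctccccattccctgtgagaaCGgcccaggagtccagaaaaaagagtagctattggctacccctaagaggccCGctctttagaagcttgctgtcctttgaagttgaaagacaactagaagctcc
Prps2: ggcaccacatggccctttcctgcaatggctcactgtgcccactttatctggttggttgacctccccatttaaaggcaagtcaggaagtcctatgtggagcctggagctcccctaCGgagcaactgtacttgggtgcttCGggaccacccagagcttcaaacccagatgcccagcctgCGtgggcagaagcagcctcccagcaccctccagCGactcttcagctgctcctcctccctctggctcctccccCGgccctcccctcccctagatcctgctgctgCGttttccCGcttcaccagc
Otc: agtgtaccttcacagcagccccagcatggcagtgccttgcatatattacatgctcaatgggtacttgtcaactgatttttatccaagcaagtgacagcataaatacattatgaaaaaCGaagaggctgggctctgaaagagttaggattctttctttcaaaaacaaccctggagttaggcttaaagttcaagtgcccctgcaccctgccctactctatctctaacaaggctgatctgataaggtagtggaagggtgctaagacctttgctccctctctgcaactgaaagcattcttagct
They hold 17 CpGs in Atp6ap1, 14 in Ndufb11, 7 in Prps2 and 1 in Otc. Their differences in H3K27me3 were -5.69, -4.87, 0.69 and 0.56, in that order of genes.

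All 5 genes of the respiratory chain group were lower in MD1. Their median difference was -1.49, with medians of -1.04 in MD1 and 0.54 in WT. Ndufb11, which encodes an accessory subunit of complex I, the NADH dehydrogenase (X, 20192452 to 20194690, mm9), had an enrichment of -5.08 in MD1 and -0.20 in WT. The MD1 value corresponds to a ratio of 1 to 33 in lowest terms, so it may rest on a single ChIP read, and the gene's interval overlaps that of Rbm10, itself lower by 2.25 on the log2 scale. Ndufa1, another small complex I subunit, had -2.42 in MD1 and 0.61 in WT. Both complex I genes thus had less mark in MD1 than most autosomal genes, at percentiles 2.10 (Ndufb11) and 32.2 (Ndufa1) of the autosomal MD1 values. Aifm1, the flavoprotein known as apoptosis-inducing factor, which is needed to assemble respiratory complexes, had -0.50 in MD1 and 0.99 in WT. Hccs, the enzyme that joins heme to cytochrome c, had -1.04 in MD1 and 0.32 in WT. Cox7b, a subunit of cytochrome c oxidase, had -0.75 in MD1 and 0.54 in WT. These 3 differed by -1.49 (Aifm1), -1.37 (Hccs) and -1.29 (Cox7b), and in MD1 they were near the middle of the autosomal values. Aifm1 stood at percentile 56.7 of autosomal values in MD1 and 84.6 in WT, Hccs at 48.0 in MD1 and 71.5 in WT, and Cox7b at 52.3 in MD1 and 76.1 in WT.

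Genes for carriers, import and membrane organisation divided, with 4 of 9 lower and 5 within the limits. Taz, which encodes the cardiolipin-remodelling enzyme tafazzin (X, 71528057 to 71535490), had -2.34 in MD1 and 0.93 in WT. Timm8a1, a small chaperone of the intermembrane space, had -3.46 in MD1 and -0.48 in WT. Slc25a5, an ADP/ATP carrier of the inner membrane, had -2.80 in MD1 and 0.04 in WT. Enrichment in these 3 was lower 9.66-fold (Taz), 7.92-fold (Timm8a1) and 7.16-fold (Slc25a5). Apoo, a subunit of the MICOS complex that shapes cristae, had 0.05 in MD1 and 1.61 in WT, and overlaps its listed pseudogene Apoo-ps. With a difference of -1.56, it stood at percentile 66.8 of autosomal values in MD1 and 93.5 in WT. The other import gene, Timm17b, a component of the inner membrane translocase, had -0.57 in MD1 and -0.41 in WT. Slc25a14, a carrier of the uncoupling protein family, had 0.47 in MD1 and 0.66 in WT. Fundc1, a mitophagy receptor of the outer membrane, had -0.28 in MD1 and -0.07 in WT. These differences, like that of Apool below, were smaller in size than the autosomal shift of -0.27.

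In the mitochondrial matrix group 2 of 4 genes were lower. Idh3g, a regulatory subunit of the isocitrate dehydrogenase of the citric acid cycle, had -1.25 in MD1 and 1.15 in WT. Hsd17b10, a dehydrogenase of isoleucine breakdown that is also a subunit of mitochondrial RNase P, had 0.02 in MD1 and 1.17 in WT, and its difference of -1.15 was little past the limit. Pdha1, the catalytic alpha subunit of pyruvate dehydrogenase and the only subunit of that enzyme among the members, was not lower. It had 0.17 in MD1 and 0.34 in WT, and overlaps Map3k15, which had 1.63 in MD1 and 1.05 in WT. Pdk3, a kinase that inhibits the enzyme, had 1.68 in MD1 and 1.29 in WT, a difference of 0.39.

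Among sugar and nucleotide enzymes, 3 of 7 were lower and the other 4 all had positive differences. G6pdx, the entry enzyme of the pentose phosphate pathway (X, 71654825 to 71674500), had -3.59 in MD1 and 0.54 in WT, and overlaps Ikbkg, which was lower as well (-2.17 in MD1 and 0.79 in WT). Hprt, which salvages purine bases (X, 50341255 to 50374837), had -2.82 in MD1 and 0.31 in WT. Pgk1, a glycolytic kinase, had -1.37 in MD1 and 0.64 in WT. Enrichment was lower 17.6-fold for G6pdx, 8.73-fold for Hprt and 4.04-fold for Pgk1. Phosphoribosyl pyrophosphate, the substrate that Hprt consumes, is made by Prps1 and Prps2, and neither was lower. Prps1 had 1.53 in MD1 and 1.12 in WT. Prps2 had 1.37 in MD1 and 0.68 in WT. The regulatory alpha subunits of phosphorylase kinase, which starts glycogen breakdown, were within the limits too. Phka1, the muscle form, had 1.83 in MD1 and 1.46 in WT. Phka2, the liver form, had 1.06 in MD1 and 0.86 in WT.

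In the lipid, sterol and polyamine group 2 of 6 genes were lower. Sat1, the acetyltransferase that starts polyamine breakdown, had -2.56 in MD1 and -0.96 in WT, the lowest WT value of any member. Sms, which makes spermine and so acts in the opposite direction, had 0.95 in MD1 and 0.28 in WT. The differences were -1.61 for Sat1 and 0.67 for Sms, which was within the limits. The level-matched difference of Sat1 (-1.32, SD 0.97) stayed within 2 SD, and Sms was near the median of 0.55 over all X genes. Nsdhl, a dehydrogenase of cholesterol synthesis, had -0.18 in MD1 and 0.88 in WT. Ebp, an isomerase acting later in the pathway, had -0.05 in MD1 and -0.63 in WT. The difference of Ebp, 0.58, was near the X median too. That of Nsdhl was -1.06, and -0.79 after subtracting the autosomal median, inside the limit. Acsl4, an acyl-CoA synthetase that prefers arachidonate, had -0.10 in MD1 and 0.44 in WT. Pgrmc1, a heme-binding membrane protein, had 0.31 in both and the smallest difference of the 41.

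Of the lysosomal, transport and redox genes 2 of 6 were lower, both of them accessory subunits of the vacuolar proton pump. Atp6ap1 (X, 71542436 to 71550060) had -4.70 in MD1 and 0.99 in WT. Its difference of -5.69, a 51.8-fold lower enrichment, was the lowest of the members and the 4th lowest of the 770 X genes, and the gene stood at percentile 3.69 of autosomal values in MD1 and at percentile 84.6 in WT. In lowest terms its ratio was 2 to 51 in MD1 and 185 to 96 in WT, so the MD1 value may rest on few reads. Atp6ap2 had -2.15 in MD1 and 1.16 in WT. The lysosomal hydrolases were within the limits: Gla, which encodes alpha-galactosidase A, had 0.35 in MD1 and 0.86 in WT, and Ids, the iduronate sulfatase, had 1.42 in MD1 and 0.84 in WT. The copper transporter gene Atp7a had 0.76 in MD1 and 1.20 in WT. Prdx4, a peroxiredoxin of the endoplasmic reticulum, had -0.16 in MD1 and -0.27 in WT.

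Of the tissue-restricted genes, 2 of 4 were higher in MD1 (Maoa and Maob) and the other 2, Otc and Alas2, were within the limits. Over all X genes 22.1% were higher, and Maoa and Maob are neighbours 21.5 kb apart. The 4 differences were all above 0, with a median difference of 0.84 (0.20 to 1.43), whereas the 37 ubiquitous genes had a median of -0.54 (quartiles -2.40 and 0.10). The median over all 770 X genes was 0.55. Alas2, the erythroid enzyme that starts heme synthesis, had 1.95 in MD1 and 1.75 in WT, the highest values of the 41 in either genotype. Otc, the urea cycle enzyme of liver and intestine, had 1.44 in MD1 and 0.87 in WT. Maob, a monoamine oxidase best known from glia and platelets, had 1.35 in MD1 and 0.22 in WT. Maoa, its paralogue, had 0.83 in MD1 and -0.60 in WT. The 2 oxidase genes were the ones past the limit, at 2.18-fold (Maob) and 2.70-fold (Maoa) higher enrichment, and their level-matched differences were 1.10 and 1.53. The difference of Alas2 was 0.059 when level-matched, inside the autosomal scatter for its length (SD 0.36). The groups overlapped: 10 ubiquitous genes had a positive difference, and 8 of them exceeded that of Alas2. A positive difference was also the common case on the X, where 69.1% of all genes had one. Of the 37 ubiquitous genes 27 had a negative difference, and 9 of those were within the limits. Subtracting the autosomal median left 21 members with a negative difference, of which 16 were lower, and turned the medians of the carrier and the lipid groups to 0.07 and 0.0039. The medians of the other groups kept their sign.

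**Figure D2:**
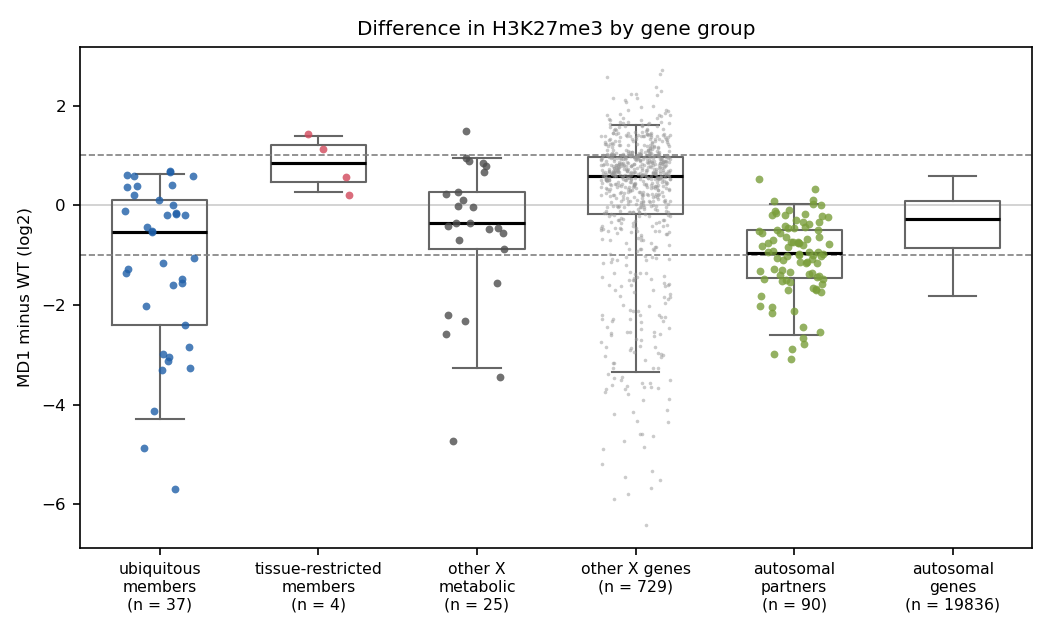
MD1 minus WT difference (log2) for ubiquitous and tissue-restricted members, the other X-linked metabolic genes, all other X genes, autosomal genes of the same pathways and all autosomal genes. Boxes show medians and quartiles, whiskers the 5th and 95th percentiles, points single genes (not drawn for autosomal genes), and dashed lines the 2-fold limits. Ubiquitous members extend from -5.69 to 0.69, and the 4 restricted members lie between 0.20 and 1.43.

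Lower members were mostly short genes. All 7 members in the shortest length quartile were lower (Ndufb11, Ndufa1, Slc25a5, Timm8a1, Sat1, Cox7b and Hsd17b10), against 17.5% of the 223 X genes in that quartile. In the longest quartile 1 of 11 members was lower (Apoo), against 13.7% of 204 X genes. The members between had 5 of 13 and 5 of 10 lower. By level-matched difference, 15 of the 18 lower members lay beyond 2 SD of their matched autosomal genes, against 2.35% of autosomal genes. The 18 were selected for a low difference, which fixes much of that contrast in advance. Over all 41 members 12 lay more than 3 SD below, against 15.6% of X genes and 0.38% of autosomal genes. The short genes Cox7b (-1.24, SD 0.72), Hsd17b10 (-1.16, SD 0.67) and Sat1 (-1.32, SD 0.97) stayed within 2 SD. Across members log length and the difference had r = 0.54 (n = 41), and across all 770 X genes r = 0.0095; genes of 1 pair of libraries are not independent and no p-value is given. The restricted genes were longer, with a median of 68.4 kb against 16.1 kb for ubiquitous genes, and 3 of the 4 fell in the longest quartile. Within that quartile the restricted genes, Otc and the adjacent Maoa and Maob, had a median difference of 1.12. The 8 ubiquitous genes there had one of 0.043, so the order of the 2 groups was the same at like length. All 204 X genes of the quartile had a median of 0.58, with Otc close to it at 0.56. The higher median of the restricted genes thus rests on the neighbours Maoa and Maob. The part that length plays in the contrast was not tested further.

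**Figure D3:**
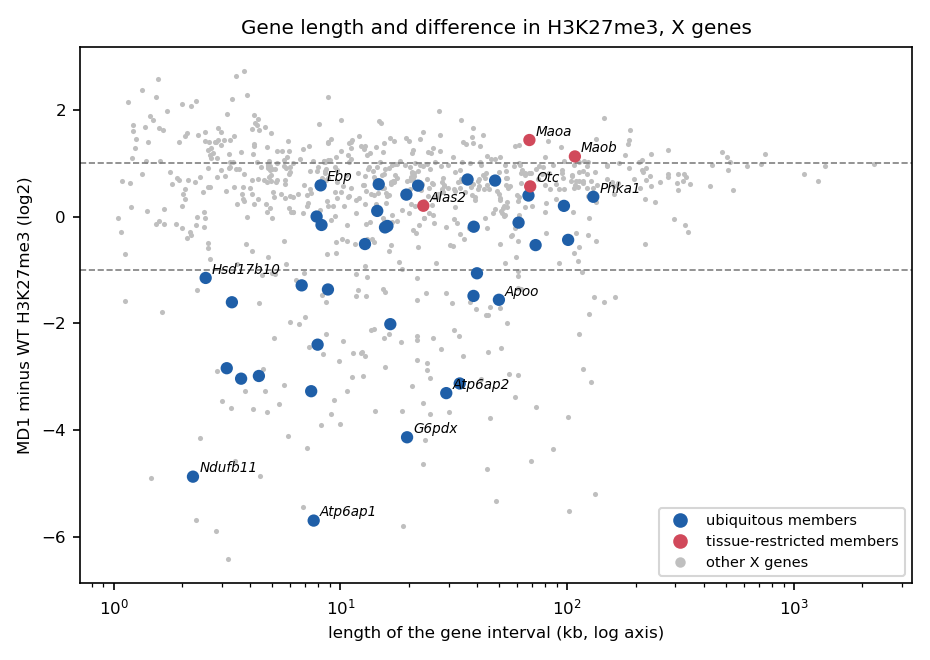
MD1 minus WT difference (log2) against the length of the gene interval (kb, log axis) for members and other X genes, with dashed lines at the 2-fold limits. All members of the shortest quartile lie below -1, and those of the longest quartile other than Apoo lie above it, while other X genes of any length are found on both sides.

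Promoter CpG content also went with the difference, on the X as a whole and less clearly within the list. A promoter window was available for 40 members, and CpG content is given as the observed number of CpGs over that expected from the C and G content (the mean over windows for 3 members with several). Of 594 X genes with a window, 39.5% of the 238 with a ratio of at least 0.6 were lower in MD1, against 7.02% of the 356 with a smaller ratio. Higher genes showed the reverse, with 10.1% and 25.8%. Among members, 16 of 31 CpG-rich and 2 of 9 CpG-poor genes were lower. The 2 CpG-poor lower genes were Cox7b, with a ratio of 0.37, and Ndufb11, with 0.596, just short of the dividing value. CpG content did not cleanly separate lower from other ubiquitous genes. Of the 18 lower genes 16 were CpG-rich. So were 14 of the 19 that were not lower, among them Pdk3 (1.01), Prps1 (0.86) and Phka1 (0.85). The restricted genes Otc (0.068) and Alas2 (0.32) were CpG-poor, and Maoa, at 0.602, was at the dividing value. Across genes r was -0.30 for members (n = 40) and -0.45 for X genes (n = 594).

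Common promoter motifs were then counted on both strands of the same windows. The GC box GGGCGG was found in 28 of 40 members and in 305 of 594 X genes with a window. Among CpG-rich genes it was in 25 of 31 members and in 176 of 238 X genes. Per window, which counts genes with several starts more than once, it was in 33.9% of X windows. It did not separate the outcomes, with 13 of the 18 lower members and 15 of the 22 others holding it. The CCAAT box, searched as CCAAT, was in 16 of 40 members and 294 of 594 X genes (45.0% of X windows). The letters TATAAA were in 2 of 40 members and 83 of 594 X genes (14.6% of X windows). None of these motifs contains another. In the printed windows the GC box was present in Atp6ap1 alone and the CCAAT box in Atp6ap1 and Ndufb11. A match is a run of letters and does not show that a factor is bound.

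**Figure D4:**
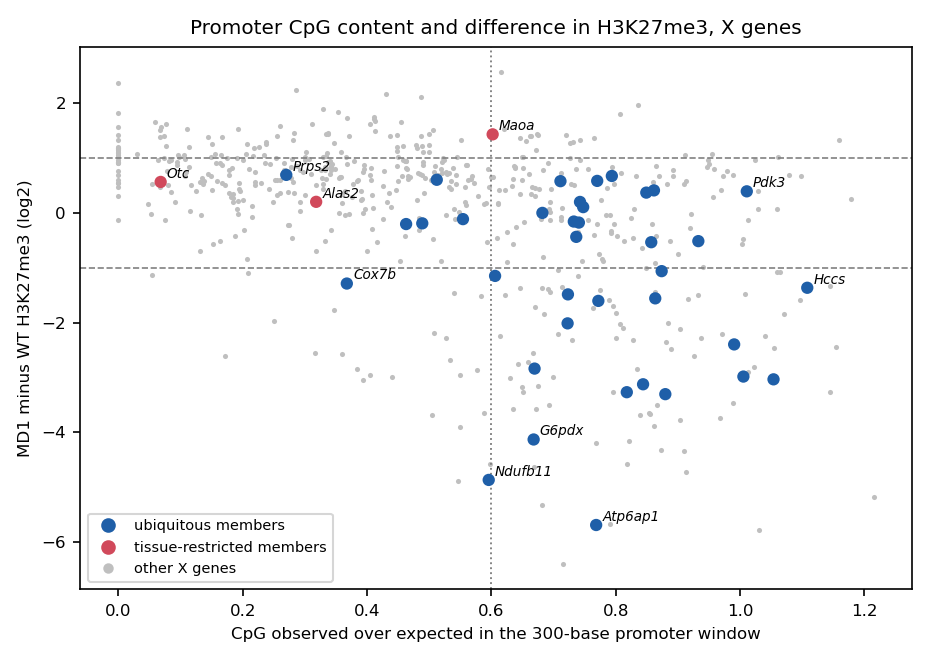
MD1 minus WT difference (log2) against the observed over expected CpG ratio of the promoter window for 40 members and other X genes. The dotted line marks a ratio of 0.6 and dashed lines the 2-fold limits. Genes below -1 are mostly to the right of the dotted line, and members of both outcomes are found there.

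Pairs of members related in sequence or function were set side by side. Maoa and Maob are neighbours that lie 21.5 kb apart and had like differences, 1.43 and 1.12. The paralogues Prps1 and Prps2 (0.41 and 0.69) and Phka1 and Phka2 (0.37 and 0.20) were alike too, although the starts of each pair are at least 26.8 Mb apart. Atp6ap1 and Atp6ap2, subunits of 1 pump but not paralogues, start 59.4 Mb apart and were both lower. The MICOS pair differed: Apoo was lower by 1.56, and Apool had -0.22 in MD1 and -0.11 in WT. Fundc2, an outer membrane protein related to Fundc1, had 1.21 in MD1 and 0.61 in WT, a difference of 0.60 against -0.20 for Fundc1.

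Lower members were found both beside other lower genes and beside genes that were not lower. An immediate X neighbour was also lower for 12 of the 18 lower members, and both immediate neighbours had a positive difference for 4. The same shares were not counted over all X genes, so whether they are unusual was not tested. Some members that were not lower, such as Timm17b and Gla, also had a lower immediate neighbour. Across the 41 members the difference and the median of the nearest X genes (up to 5 on each side) had r = 0.57 and Spearman's rho = 0.42, where nearby members share some of their neighbours. Among the 18 lower members, which were selected for a low difference and so tend to fall below their surroundings, 17 were below the median of those genes, 14 of them by at least 1 on the log2 scale, and 7 had neighbours with a positive median. Ndufb11 stood furthest out, at -4.87 among neighbours with a median of 0.39. Slc25a5 had -2.84 against a neighbour median of 0.75, and the carrier gene next to it, Slc25a43, had 1.47 in MD1 and 0.59 in WT. Timm8a1 had -2.99, whereas Btk, a kinase gene of B lymphocytes whose interval lies 0.71 kb away, had 2.11 in MD1 and 1.41 in WT. Sat1 and Prdx4 lie 107 kb apart with 1 measured gene between them and differed by -1.61 and 0.10. Cox7b, Atp7a and Pgk1 lie close together, with gaps of 4.77 kb and 58.9 kb, and the outer genes were lower while Atp7a between them was not.

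In the gene-rich stretch from 70 to 72 Mb most of the neighbourhood was lower. It held 5 members, Nsdhl, Idh3g, Taz, Atp6ap1 and G6pdx, and all 5 were lower, as were 30 of its 51 X genes. Taz and Atp6ap1 are adjacent, 6.94 kb apart, and the median of the genes around each was -4.76. Taz is the 1 lower member that was above its neighbours' median. Outside this stretch 13 of 36 members (36.1%) were lower, against 15.4% of X genes. The 2 higher members lay in a sparse region: the nearest measured gene on the other side of Maoa is 2952 kb away, and Ndp, 68.2 kb beyond Maob, had 1.48 in MD1 and 0.46 in WT.

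**Figure D5:**
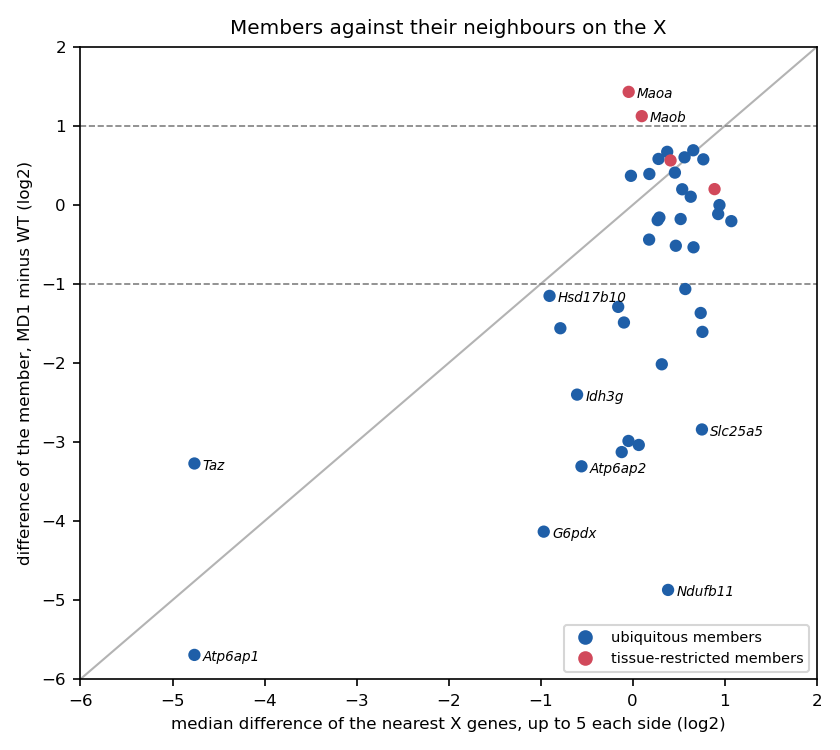
Difference of each member (MD1 minus WT, log2) against the median difference of its nearest X genes, up to 5 on each side, with a line of equality and dashed lines at the 2-fold limits. Lower members fall below the line, apart from Taz, and Atp6ap1 and Taz are the members whose neighbours had a median of -4.76.

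Other X-linked metabolic genes outside the list showed a smaller share of lower genes. They were picked by hand with earlier results known and were not divided by breadth of expression. Their median length was 35.0 kb against 19.5 kb for the members, so the shares are not those of like genes. Of 25 with values, 6 were lower and 1 was higher, a lower share nearer to the 18.3% of all X genes, with a median difference of -0.36 and medians of 0.61 in MD1 and 0.92 in WT. The 4 with the largest absolute differences were all lower. Ogt, the enzyme that adds N-acetylglucosamine to nuclear and cytosolic proteins, had -3.50 in MD1 and 1.22 in WT. Slc6a8, a creatine transporter, had -2.48 in MD1 and 0.96 in WT. Fam3a had -1.63 in MD1 and 0.95 in WT, and Slc35a2, a UDP-galactose transporter of the Golgi, had -2.90 in MD1 and -0.58 in WT. The gene past the limit in the other direction was Chst7, a sulfotransferase, with 1.64 in MD1 and 0.15 in WT.

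Autosomal genes of the same pathways had little of the mark in either genotype. The 90 genes, among them other subunits of complex I, cytochrome c oxidase and pyruvate dehydrogenase, had a median of -3.48 in MD1 and -2.34 in WT, at percentiles 17.6 and 19.2 of autosomal genes. The X-linked members stood far above them in WT, at a median of 0.61, and 1 of the 41 (Sat1) was there below the autosomal median. In MD1, 13 of the 18 lower members were below the autosomal median, and the median of the 18, -2.24, was exceeded by 18 of the 90 autosomal genes. Of the 90, 41 (45.6%) were lower by the plain difference and none higher, with a median of -0.96. Over all autosomal genes 20.4% were lower and 1.61% higher, and among the X-linked members 43.9% were lower. By level-matched difference the median of the 90 was -0.044, with 7 lower and 2 higher, against 3.42% and 3.17% of autosomal genes. The lowest plain differences were at the glycolytic gene Tpi1 (-5.65 in MD1 and -2.57 in WT) and the polyamine gene Srm (-4.94 in MD1 and -1.96 in WT). In lowest terms their MD1 ratios were 1 to 49 (Tpi1) and 1 to 30 (Srm), so they may rest on single reads, and the interval of Tpi1 overlaps another gene. The highest plain difference was at the polyamine gene Sat2 (-0.87 in MD1 and -1.39 in WT). The 8 autosomal urea cycle and heme genes had a median difference of -0.65, or -0.19 when level-matched.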

How the data were processed

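The deposited table holds 1 log2 value per gene and genotype; per the file headers the columns are WT and smchd1MD1 enrichments, and the genome build is mm9 per the submitters' processing notes. The label text and header name no aligner, counted interval or denominator (not given in the sources used here). The log2 scale was read from the values: 99.98% of deposited WT and 99.95% of MD1 values equalled 1 constant per genotype plus the log2 of 1 whole number over another, each up to 20000 (relative tolerance 1e-10), as a scaled ChIP over input ratio would. The ratios are in lowest terms, so read counts and depth stay unknown and no counting interval is given. Starts count from 0 in the table (end minus start equalled the RefSeq length for 9511 of 21379 symbols, and for 620 when 1 was added) and are printed counting from 1. Of 22691 genes, 20606 had both values. Differences, level-matched differences, neighbours and promoter counts were computed with Python 3.11.15, numpy 2.4.6 and pandas 2.3.3, and the level matching was tested on simulated data, where matching on the mean level understated the differences set in and matching on the WT level came closer to them. ChIP reads carry no strand, so the 4 members whose interval overlaps another gene (Ndufb11, Apoo, Pdha1 and G6pdx) can share reads with it. All members are given. From the other lists the text names the 4 X-linked genes with the largest absolute difference and, among autosomal genes, the 2 lowest and 2 highest differences, 1 of which is not reported here. Neighbouring genes, the 70 to 72 Mb stretch, Chst7 and the promoter ratio of 0.6 were picked after values were seen. The members and lists were chosen with earlier results of these data known.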

Additional observations from a re-analysis of the deposited data

How the results depend on the processing

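The counts depended most on how low values were treated. When 1 was added to the linear ratio as a pseudocount, 6 members were lower and 0 higher, in place of 18 and 2, and the median of the autosomal partners became -0.11 in place of -0.96. With 1 added, a gene with a WT value below 0 cannot be called lower. With a pseudocount of 0.01 no call changed. The lower count was 16 after centring on the autosomal median (Nsdhl and Hsd17b10 came within the limit), 17 of 40 when genes in the lowest 25% by mean level were dropped, which removed Ndufb11, 15 of 37 without overlapping genes, and 18 under both level matchings. At a 1.5-fold limit 18 members were lower and 5 higher, and at 3-fold 12 and 0. The autosomal partners' median became -0.044 when matched on mean level and -0.096 when matched on the WT level. The ubiquitous median of -0.54 became -1.21 as a mean and -1.15 with Phka1, Phka2, Pdk3 and Slc25a14 counted as tissue-restricted, whose median was then 0.38 over 8 genes. The medians of all members, of the ubiquitous and tissue-restricted genes, of the other X-linked metabolic genes and of the autosomal partners kept their sign under every setting tried, whereas centring turned those of the carrier and lipid groups to 0.07 and 0.0039. No paired analysis was possible because each genotype has 1 ChIP and 1 input library. Without replicates or a known depth, differences inside the scatter of autosomal genes of like length cannot be read as changes.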
